A study of Mus musculus with 12 samples.

Results

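Integrins are the receptors by which cells hold on to the matrix around them, and laminins are the heterotrimeric proteins of the basement membrane to which several integrins bind. The genes described here are those whose symbol is that of an integrin alpha chain, an integrin beta chain or a laminin alpha, beta or gamma chain. They were picked by name alone, and 36 such genes were listed among the 17505 genes of the 2 deposited expression tables, 36 in a culture table and 33 in a genotype table. Values were high enough to be tested for 33 of them in either table alone. Itga2, Itgae and Lama4 were too low in the culture table, and Itgad, Itgae and Lama1 had no row in the genotype table.

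The culture table holds freshly isolated muscle stem cells (MuSCs) of 3 wild-type mice and myoblasts grown from MuSCs of the same 3 mice for 3 days in growth medium (Ham's F10, serum and bFGF), as replicates 04, 05 and 06. The study cultured its sorted cells on plates coated with collagen, and it lifted the myoblasts with trypsin. The genotype table holds freshly isolated MuSCs of 3 wild-type (WT) and 3 Nedd4L-cKO mice, males of 5 to 6 weeks of age, as replicates 01 to 03 in each genotype. Nedd4L-cKO mice are Nedd4L fl/fl and Pax7 cre/+, so that exon 15 of Nedd4L, an E3 ubiquitin ligase gene, is removed in cells that express Pax7, and the gene is still transcribed. Each library was made from 1000 cells. The sort kept cells positive for ITGA7 and negative for CD31, CD45, SCA1 and CD11b, so 2 of the genes described here, Itga7 and Itgam (the CD11b chain), were themselves part of the gate.

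Expression is given as RPM, the deposited normalised count per 1000000 of the mean library total of its table, and differences as log2 fold changes of RPM + 1 from limma, with p-values adjusted over all genes tested in the table. Nedd4l stood at 66.7 to 96.4 RPM in the WT libraries and at 22.5 to 36.3 RPM in the Nedd4L-cKO libraries. Pax7 stood at 151 to 249 RPM in the MuSCs and at 17.8 to 21.2 RPM in the myoblasts, and Myog at 524 to 732 RPM against 3344 to 4521 RPM. Ptprc (CD45) stayed under 0.6 RPM in every library of both tables. Another leukocyte marker, Lyz2, had 0, 0 and 33.6 RPM in WT and 0.552, 4.40 and 5.75 RPM in Nedd4L-cKO libraries, and no row in the culture table. Summed leukocyte markers of the genotype table had 2.04 to 39.0 RPM in WT and 2.54 to 9.57 RPM in Nedd4L-cKO libraries. The mural cell marker Rgs5 lay between 280 and 1945 RPM in the genotype table and between 4.44 and 22.7 RPM in the culture table. Levels are those of bulk RNA, in which fewer cells of a type and less RNA per cell cannot be told apart.

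An integrin is a pair of 1 alpha and 1 beta chain. The alpha chain largely sets the ligand: the α3, α6 and α7 chains bind laminins, α1, α2, α10 and α11 bind collagens, and α5, α8, αv and αIIb bind proteins that carry an RGD motif such as fibronectin. A laminin is a trimer of 1 alpha, 1 beta and 1 gamma chain, and the α2, β1, γ1 and α2, β2, γ1 trimers are the main laminins of the muscle fibre basement membrane, under which MuSCs lie. Mutations of LAMA2 and of ITGA7 cause muscular dystrophy and myopathy.

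Promoter sequences were found for 23 of the 37 genes of the mouse annotation whose symbol has this form, in 300-base windows from 250 bases before to 50 bases after a RefSeq start. The windows of 4 members are shown as examples. Each has a single window and changed in culture, Itga5 and Itga4 upward and Itga8 and Lama2 downward. They are printed 5′ to 3′ on the gene's own strand in the build GRCm38.p6, and capitals mark CAGCTG, the E-box form bound by MyoD family factors, TGANTCA, the AP-1 motif, and CATTCC, the MCAT motif bound by TEAD factors, all searched on both strands. Their positions are chr15:103366742-103367041 on the minus strand for Itga5, chr2:79255176-79255475 on the plus strand for Itga4, chr2:12301895-12302194 on the minus strand for Itga8 and chr10:27616893-27617192 on the minus strand for Lama2.
Itga5: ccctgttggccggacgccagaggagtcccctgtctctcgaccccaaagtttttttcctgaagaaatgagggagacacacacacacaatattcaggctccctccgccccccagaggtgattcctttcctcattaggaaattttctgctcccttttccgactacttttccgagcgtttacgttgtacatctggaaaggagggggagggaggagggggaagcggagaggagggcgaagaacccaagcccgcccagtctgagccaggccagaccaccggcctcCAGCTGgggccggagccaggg
Itga4: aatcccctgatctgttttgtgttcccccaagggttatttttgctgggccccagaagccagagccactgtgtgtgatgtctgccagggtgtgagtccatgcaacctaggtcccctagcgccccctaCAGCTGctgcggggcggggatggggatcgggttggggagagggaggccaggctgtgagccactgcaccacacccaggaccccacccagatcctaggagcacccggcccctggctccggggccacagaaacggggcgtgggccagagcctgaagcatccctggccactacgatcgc
Itga8: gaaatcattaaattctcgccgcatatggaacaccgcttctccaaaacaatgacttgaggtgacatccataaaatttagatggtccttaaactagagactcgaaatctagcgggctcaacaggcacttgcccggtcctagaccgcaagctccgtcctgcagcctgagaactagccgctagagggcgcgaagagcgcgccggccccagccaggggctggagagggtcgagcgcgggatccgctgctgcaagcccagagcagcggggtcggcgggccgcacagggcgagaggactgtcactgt
Lama2: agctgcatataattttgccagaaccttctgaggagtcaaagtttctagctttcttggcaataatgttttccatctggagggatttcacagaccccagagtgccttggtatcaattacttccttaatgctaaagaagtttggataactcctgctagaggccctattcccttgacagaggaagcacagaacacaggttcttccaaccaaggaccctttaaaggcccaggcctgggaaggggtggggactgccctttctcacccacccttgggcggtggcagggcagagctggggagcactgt

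The Itga5 and Itga4 windows each hold 1 CAGCTG, and the Itga8 and Lama2 windows hold none of the 3 motifs. Itga9, Itgam, Itgb8 and Lamb1 also rose and have a single window, but are not shown. Of these, the Itga9 window holds 1 CAGCTG and 1 TGANTCA, and the Itgam, Itgb8 and Lamb1 windows hold none of the 3 motifs. Over all 26 windows of integrin and laminin genes, 8 held CAGCTG, or 30.8%, beside 16.3% of the 32851 windows of the whole table. Among the members with a window, CAGCTG was found in 4 of the 9 that rose in culture (Itga4, Itga5, Itga9 and Lamb3) and in none of the 2 that fell. It was also found in 4 of the 12 that were not called or not tested in culture (Itga1, Itga2b, Itgax and Itgb5). TGANTCA was in 3 of the 26 windows against 7.81% of all windows, and CATTCC in 3 against 14.7%. These matches describe letters in a window and say nothing of whether a factor binds there.

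**Figure D1:**
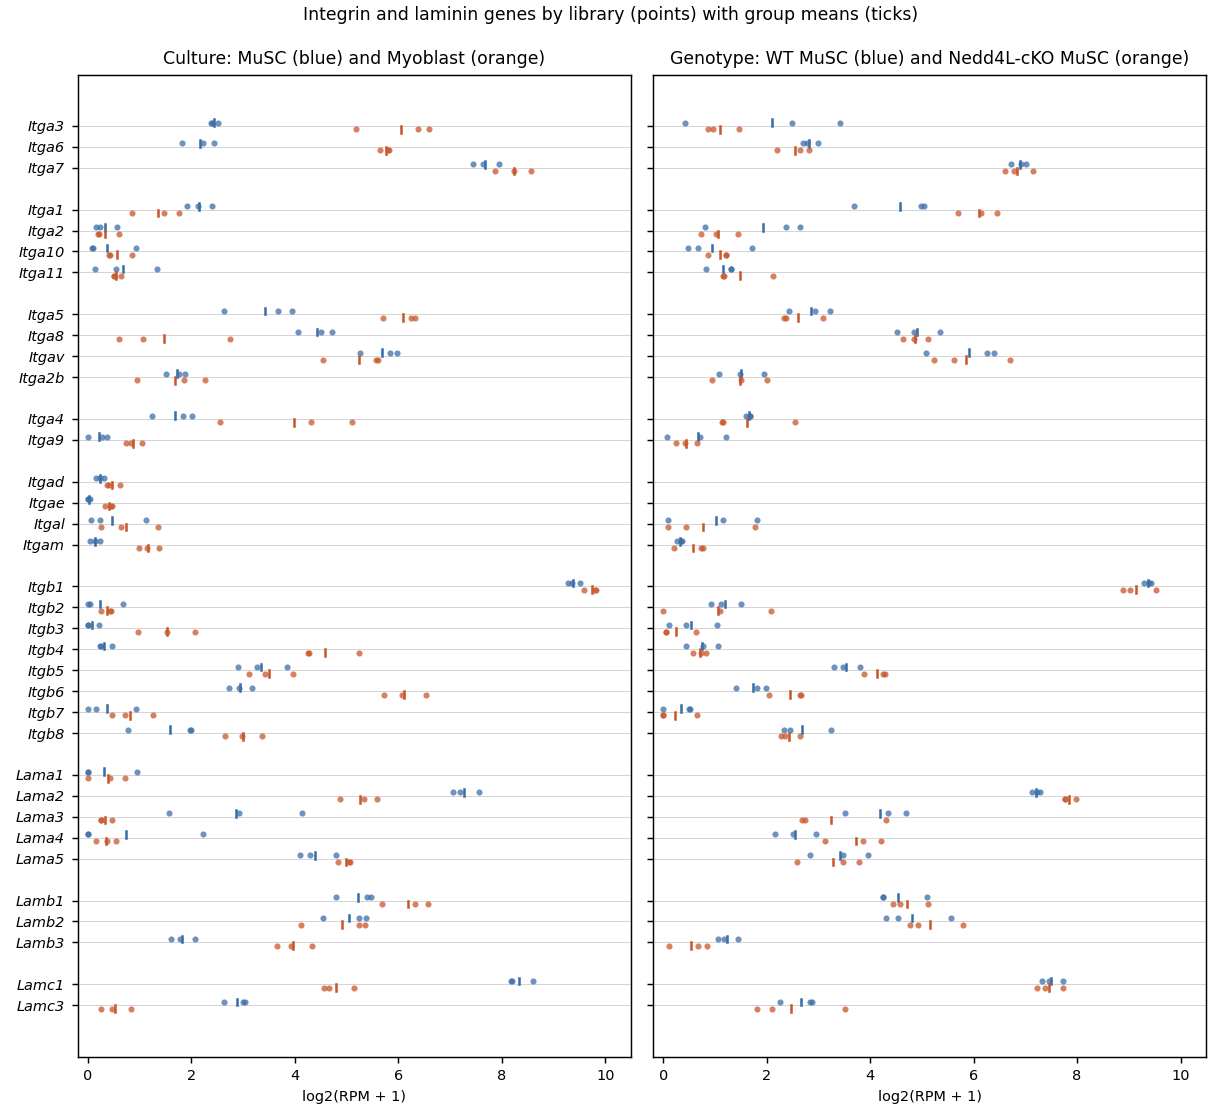
Level of the integrin and laminin genes reported here in every library, as log2(RPM + 1), in the culture table (left, MuSCs blue, myoblasts orange) and the genotype table (right, WT blue, Nedd4L-cKO orange); points are libraries, ticks are means of 3 libraries on this scale, and rows are grouped by chain class. The orange points stand apart from the blue ones for many genes on the left, with Lamc1, Lama2 and Itga8 lower and Itga3, Itga6, Itgb4 and Itgb6 higher in myoblasts, and overlap them for most genes on the right.

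The 4 members Itgb1, Itga7, Lamc1 and Lama2 stood above the others in MuSCs when levels were divided by transcript length. In the culture table Itgb1, the beta chain shared by most of these integrins, had 143, 127 and 120 RPM per kilobase, Itga7 had 58.1, 40.9 and 46.6, and Lamc1, the γ1 chain, had 48.8, 37.1 and 36.3. The Itga7 and Lamc1 values overlap, so their order is not settled by these libraries. Lama2 followed with 13.7, 19.5 and 14.9 RPM per kilobase, below every Lamc1 library and above every library of Itgav, which had 7.58, 5.07 and 8.33. The same 5 genes held ranks 1 to 5 by the group mean in the WT libraries of the genotype table. They encode both chains of the α7β1 integrin, the αv chain and the laminin α2 and γ1 chains, while the laminin beta chains Lamb1 and Lamb2 had lower means. Their order below Itgav is not settled either, since Lamb1 had 6.92, 7.34 and 4.50 and Lamb2 7.19, 6.51 and 3.95 RPM per kilobase in the culture table, both above Itgav in replicate 05.

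Culture for 3 days changed many of the members. In myoblasts against MuSCs, 12 of 33 tested members rose and 5 fell (limma, adjusted p ≤ 0.05), where 42.8% of all 15345 tested genes did so, 22.2% upward and 20.6% downward. Among the integrins 10 of 23 rose and 1 fell, and among the laminins 2 of 10 rose and 4 fell. In 21 members the groups did not overlap, 15 higher and 6 lower, beside 55.2%, 28.4% and 26.8% of all tested genes. The median log2 fold change of the tested members was 0.35, against 0.039 over all tested genes. With a floor of 10 normalised counts in every library, which drops genes that are near 0 in either group, 11 of 20 members passed, beside 43.5% of all genes tested with that floor.

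**Figure D2:**
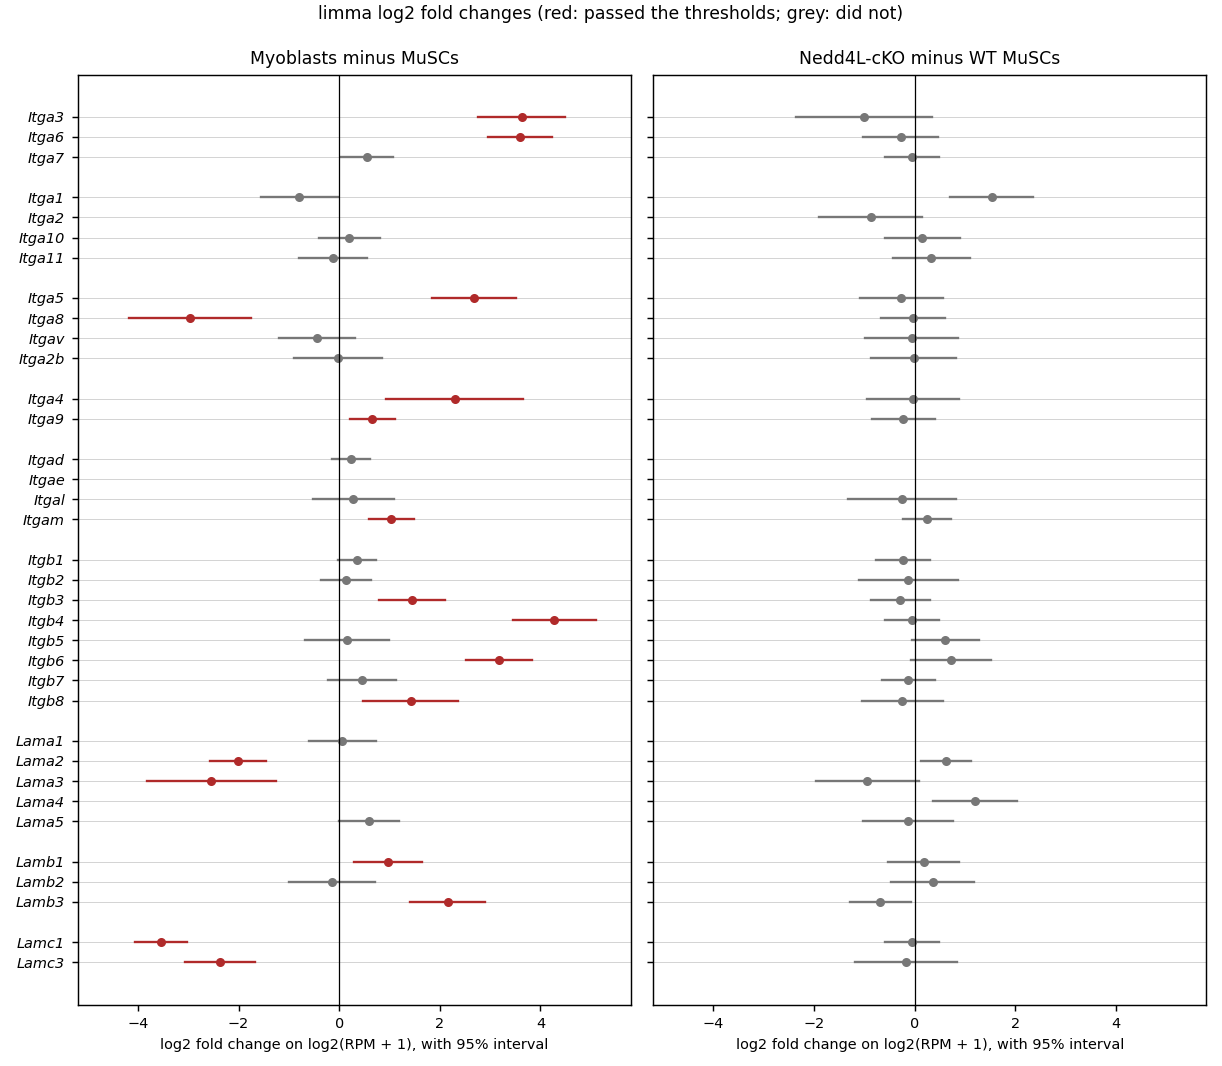
Log2 fold change of the tested members reported here on the log2(RPM + 1) scale with its 95% interval from limma, for myoblasts minus MuSCs (left) and Nedd4L-cKO minus WT MuSCs (right), each from 3 against 3 libraries; red marks members past the thresholds of that comparison and grey the others. On the left 12 red points lie above 0 and 5 below, from Itgb4 at 4.27 to Lamc1 at -3.54, and on the right there is none.

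The laminin-binding alpha chains Itga3 and Itga6 rose from low levels, and Itga7 stayed the most abundant of the class. Itga3, which pairs with β1 and binds laminins with α5 or α3 chains, stood at 4.72, 4.23 and 4.27 RPM in MuSC replicates 04, 05 and 06 and at 35.3, 96.0 and 82.6 RPM in the myoblasts of the same mice. The groups were far apart, with the lowest myoblast library, replicate 04, above every MuSC library. On the log2 scale the rise was 3.62 (SE 0.38, limma adjusted p = 0.000132). Itga6, a laminin receptor that pairs with β1 or β4, went from 3.65, 4.42 and 2.54 RPM to 48.9, 55.7 and 54.5 RPM (log2 fold change 3.59, SE 0.28, limma adjusted p = 2.54e-05). All 3 mice showed the Itga6 change to a similar extent.

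Itga7, the laminin receptor of the muscle lineage and the antigen of the sort, had 247, 174 and 198 RPM in MuSCs and 233, 302 and 379 RPM in myoblasts. The ranges overlapped, since myoblast replicate 04 lay below MuSC replicate 04. The log2 fold change was 0.55 (SE 0.23) and did not pass (limma adjusted p = 0.083), although it did when each library was scaled to its own total (adjusted p = 0.0394) and without myoblast replicate 04 (adjusted p = 0.0163). The make-up of the class moved more than Itga7 itself. Per kilobase, Itga7 made up 97.5%, 96.5% and 97.4% of the summed Itga3, Itga6 and Itga7 level in MuSCs and 79.4%, 72.2% and 78.4% in myoblasts, a mean difference of -20.5 percentage points without overlap (exact permutation test, p = 0.1, two-sided, the smallest that 3 against 3 libraries can give). Itga3 took 14.9% ± 4.67 and Itga6 8.44% ± 1.68 of the class in myoblasts (SD, n = 3).

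Among the RGD-binding alpha chains, Itga5 and Itga8 changed in opposite directions. Itga5, the chain of the main fibronectin receptor α5β1, rose from 14.4, 11.7 and 5.23 RPM to 51.3, 74.9 and 79.5 RPM (log2 fold change 2.68, SE 0.37, limma adjusted p = 0.000552). Itga8, whose β1 integrin binds nephronectin, fell from 21.7, 15.7 and 25.3 RPM to 5.69, 1.08 and 0.524 RPM, by 2.96 on the log2 scale (SE 0.54, limma adjusted p = 0.0024). Every myoblast library lay above every MuSC library for Itga5 and below for Itga8. Itgav, which pairs with several beta chains, stood at 56.0, 37.4 and 61.6 RPM and then 22.4, 47.9 and 46.6 RPM, with overlapping ranges (log2 fold change -0.44, SE 0.34, limma adjusted p = 0.312). Of the summed level of the class per kilobase, Itga5 held 22.9%, 25.6% and 8.76% in MuSCs and 74.5%, 70.8% and 72.2% in myoblasts, while Itgav went from 54.3% ± 6.33 to 23.7% ± 3.95 and Itga8 from 23.6% ± 2.85 to 2.07% ± 2.77 (SD, n = 3). Both Itga5 and Itga8 thus changed by more than the spread between mice, and Itgav did not.

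Itga4 and Itga9 encode the related α4 and α9 chains, whose ligands include VCAM-1, fibronectin and osteopontin, and both rose. Itga4 had 1.36, 3.01 and 2.55 RPM in MuSCs and 4.84, 18.8 and 33.3 RPM in myoblasts (log2 fold change 2.30, SE 0.60, limma adjusted p = 0.0143). The myoblast libraries were widely spread, with replicate 04 the lowest, as it was for Itga3. Acta1, the skeletal actin gene of differentiating muscle, was also lowest in that library, at 7018 RPM against 9067 and 14266 RPM, and its part in the Itga4 values was not tested. Exons of Itga4 share 3481 bases with those of Cerkl on the other strand, which these unstranded libraries cannot separate. Cerkl was listed at 0.0685 to 0.921 RPM in the culture table, a value under the same limit. The part of Cerkl in the Itga4 values was not tested. Itga9 passed at levels of 0 to 1.06 RPM, and lost the call without MuSC replicate 05, myoblast replicate 05 or myoblast replicate 06 (adjusted p up to 0.11, limma).

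The leukocyte alpha chains were close to absent. Itgam, sorted against as CD11b, was listed at 0.0939, 0.0248 and 0.174 RPM in MuSCs and at 0.974, 1.21 and 1.59 RPM in myoblasts, for which no second sort is described (log2 fold change 1.03, SE 0.20, limma adjusted p = 0.00306). Itgam shares 3450 exon bases with a neighbouring annotated gene on its strand, Gm49368. Of 12 leukocyte markers 5 were listed in the culture table, with a summed level of 2.57 to 7.53 RPM in MuSCs and 14.1 to 24.0 RPM in myoblasts. Laptm5 made up most of that in myoblasts (12.3 to 20.1 RPM), while Ptprc stayed between 0.0677 and 0.533 RPM in both groups. Itgal led the leukocyte chains per kilobase by its MuSC mean but in 1 MuSC library alone, replicate 05, with shares of 33.8%, 78.1% and 9.15%. It had 0.176, 1.17 and 0.0344 RPM in MuSCs and 0.192, 0.546 and 1.55 RPM in myoblasts, with overlapping ranges.

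None of the collagen-binding alpha chains passed in culture. Itga1, the leading member per kilobase by its MuSC mean, had 2.75, 3.39 and 4.26 RPM in MuSCs and 1.75, 0.797 and 2.38 RPM in myoblasts, groups that did not overlap (log2 fold change -0.79, SE 0.34, limma adjusted p = 0.0909). In MuSC replicate 04 Itga11 held a larger share of the class, 51.1% against 43.9% for Itga1. Itga2, Itga10 and Itga11 stayed at or under 1.53 RPM in every library of the culture table.

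Of the 8 beta chains, 4 rose and none fell. Itgb4, the partner of α6 in hemidesmosomes, was nearly absent from MuSCs at 0.175, 0.384 and 0.186 RPM and reached 18.0, 36.6 and 18.4 RPM in myoblasts (log2 fold change 4.27, SE 0.36, limma adjusted p = 3.87e-05), the largest change of the members on this scale. Its exons share 1074 bases with Galk1 on the other strand, which rose less, from 32.3 to 37.9 RPM in MuSCs to 53.0 to 127 RPM in myoblasts. Itgb6, which pairs only with αv and activates latent TGF-β, rose from 6.58, 7.98 and 5.66 RPM to 52.1, 66.6 and 92.0 RPM (log2 fold change 3.17, SE 0.29, limma adjusted p = 5.58e-05), so that its level exceeded that of its partner Itgav per kilobase in all 3 myoblast libraries, at 10.3, 13.2 and 18.2 RPM per kilobase against 3.03, 6.48 and 6.31. In MuSCs the order was the other way round, with Itgav higher in all 3.

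Itgb8, another αv partner, stood at 0.721, 2.98 and 2.94 RPM in MuSCs and at 6.92, 9.32 and 5.31 RPM in myoblasts (log2 fold change 1.42, SE 0.42, limma adjusted p = 0.0233), a call that was lost without MuSC replicate 04 or myoblast replicate 05 (adjusted p up to 0.0848). Itgb3, also a partner of αv, was listed at 0, 0 and 0.16 RPM in MuSCs and at 3.18, 0.963 and 1.87 RPM in myoblasts (limma adjusted p = 0.00383). Itgb1 had 734, 652 and 619 RPM in MuSCs and 906, 890 and 769 RPM in myoblasts, without overlap, but its log2 fold change of 0.35 (SE 0.16) passed only with each library scaled to its own total (limma adjusted p = 0.11, and 0.0297 on that scaling). Itgb1 made up 97.6%, 95.2% and 96.7% of the summed beta chain level per kilobase in MuSCs and 90.0%, 88.4% and 85.6% in myoblasts (exact permutation test, p = 0.1, two-sided), while Itgb6 went from 0.991% ± 0.168 to 7.47% ± 2.65 (SD, n = 3). It therefore remained the main beta chain in every library. Of the members not yet given in culture, Itgb5 overlapped between the groups at 6.46 to 14.7 RPM and Itga2b at 0.924 to 3.80 RPM, and Itgb2, Itgb7, Itgad and Itgae stayed at or under 1.38 RPM.

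The laminin chains that dominate in MuSCs fell steeply. Lamc1, the γ1 chain common to most laminins, lies on chromosome 1 at 153094597 to 153208774 (GRCm39, GENCODE vM39) and fell from 387, 294 and 288 RPM to 34.5, 22.6 and 24.1 RPM, 11.9-fold by the group means. On the log2(RPM + 1) scale this was the largest fall of the members (-3.54, SE 0.23, limma adjusted p = 9.66e-06), whereas by group means Lama3 and Lamc3, described next, fell 32.4-fold and 14.2-fold from lower levels. Lama2, the α2 chain of muscle laminins, fell from 133, 189 and 144 RPM to 28.1, 39.5 and 47.1 RPM, 4.06-fold (log2 fold change -2.01, SE 0.25, limma adjusted p = 0.000301). Neither gene had a myoblast library within the range of the MuSC libraries.

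Lama3, an epithelial alpha chain, was uneven among MuSC libraries at 16.5, 1.96 and 6.54 RPM and fell to 0.388, 0.192 and 0.192 RPM (log2 fold change -2.54, SE 0.56, limma adjusted p = 0.00655). Lamc3, the γ3 chain, fell from 7.23, 6.96 and 5.17 RPM to 0.781, 0.194 and 0.385 RPM (log2 fold change -2.37, SE 0.31, limma adjusted p = 0.000391). Several genes that other connective tissue cells also express fell alongside: the summed level of 8 fibro-adipogenic markers was 2215 to 2558 RPM in MuSCs and 140 to 207 RPM in myoblasts, with Col3a1, Dpt, Cd34 and Dcn called lower. Ly6a, which is on the same list and encodes SCA1, an antigen the sort was negative for, was called higher, from 0, 0.428 and 0.0271 RPM to 1.45, 1.86 and 2.50 RPM (log2 fold change 1.35, limma adjusted p = 0.00239). Pdgfra, which defines those cells, lay between 0 and 2.83 RPM in all 6 libraries and Lum at or under 1.98 RPM. The part of such cells in the falls of Lamc1, Lama2 and Itga8 was not tested.

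The laminin beta chains Lamb1 and Lamb3 rose, and the alpha chain Lama5 gained in share. Lamb1, the β1 chain, went from 41.1, 43.5 and 26.7 RPM to 78.6, 94.3 and 50.3 RPM (log2 fold change 0.97, SE 0.30, limma adjusted p = 0.0271), a call lost without MuSC replicate 06 or myoblast replicate 05 (adjusted p up to 0.106). Lamb3, a chain of epithelial laminins, went from 3.18, 2.05 and 2.41 RPM to 14.2, 19.1 and 11.6 RPM (log2 fold change 2.15, SE 0.33, limma adjusted p = 0.000927). Lamb3 thus rose while Lama3, its usual alpha partner, fell.

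Lama5, the α5 chain, had 26.7, 18.5 and 16.2 RPM and then 32.1, 27.5 and 32.6 RPM (log2 fold change 0.59, SE 0.27, limma adjusted p = 0.103), and it passed without MuSC replicate 04 or with own-total scaling (adjusted p = 0.0449 and 0.0498). Lamb2, the β2 chain, overlapped between the groups at 22.3 to 40.5 RPM and 16.4 to 39.7 RPM, and Lama1 stayed at or under 0.934 RPM.

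By share per kilobase, Lama2 made up 78.3%, 89.7% and 88.4% of the laminin alpha chains in MuSCs and 49.6%, 62.6% and 62.3% in myoblasts (exact permutation test, p = 0.1, two-sided), and Lama5 went from 9.73% ± 3.18 to 40.4% ± 6.38 (SD, n = 3). Lamb3 made up 3.41%, 2.26% and 4.28% of the laminin beta chains in MuSCs and 12.1%, 11.7% and 10.4% in myoblasts, and Lamb2 went from 46.6% ± 2.29 to 27.4% ± 12.5 (SD, n = 3). Within a library these shares do not depend on how libraries were scaled to each other. The groups did not overlap for Lama2, Lama5, Lamb2 or Lamb3 by share.

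**Figure D3:**
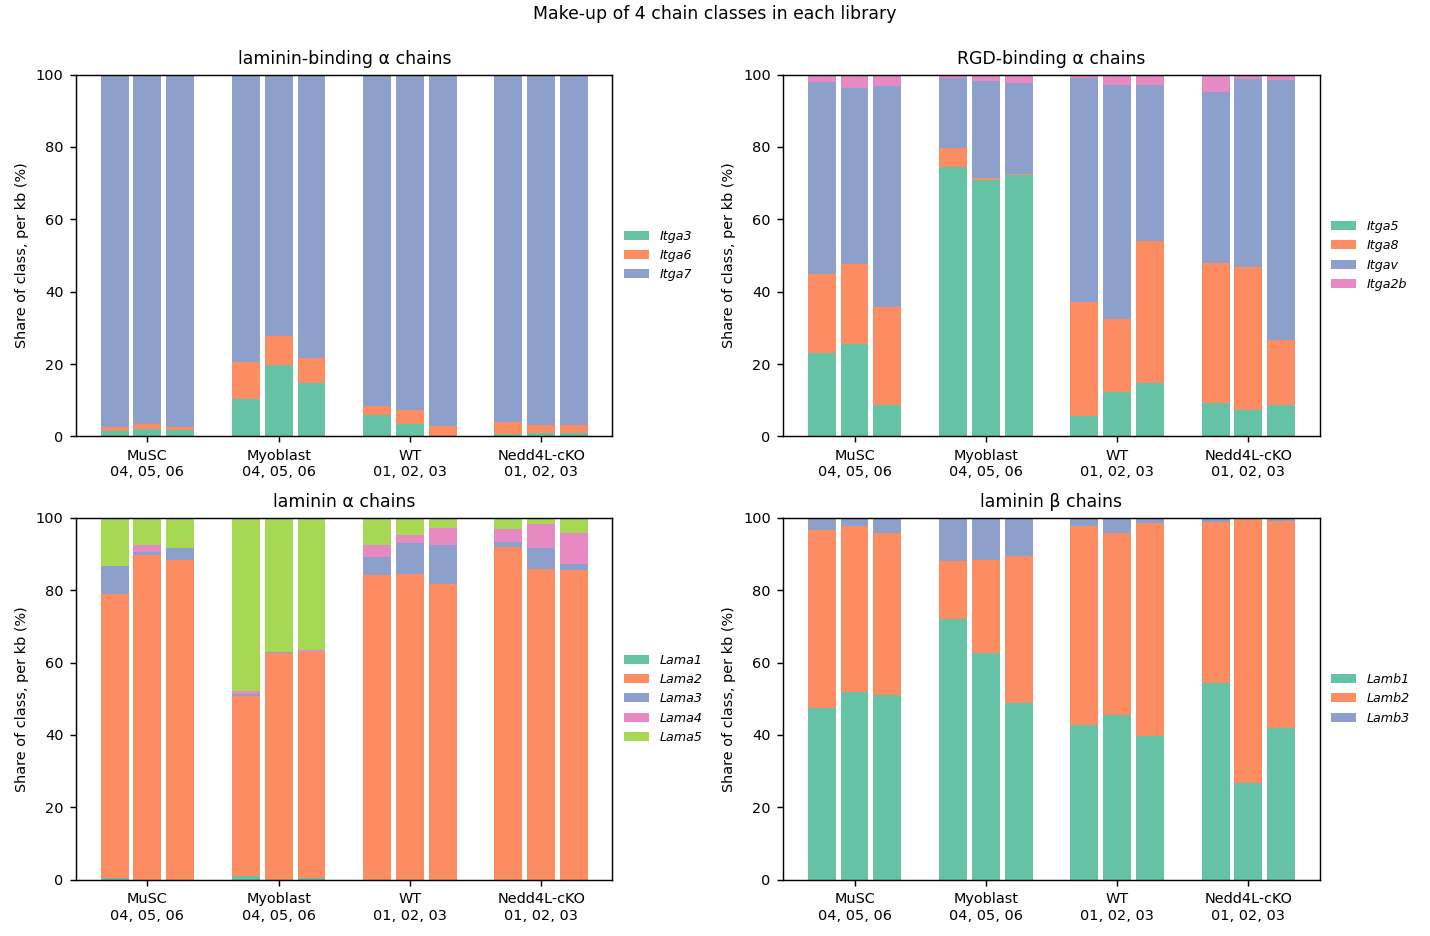
Share of each chain in the summed level of its class, per kilobase of transcript, in each of the 12 libraries (3 each of MuSCs, myoblasts, WT and Nedd4L-cKO MuSCs, the first pair from the culture table and the second from the genotype table). The myoblast bars differ from all MuSC bars, with Itga3 and Itga6, Itga5, Lama5 and Lamb3 taking larger shares, whereas Itga7 and Lama2 hold at least 91.6% and 78.3% of their classes in every MuSC bar of both tables.

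The partners of these chains also moved in both directions in culture. Of 38 tested integrin adaptors and activators 20 rose and 8 fell, of 28 other laminin receptors and basement membrane genes 7 rose and 8 fell, and of 21 other integrin ligands 7 rose and 8 fell by the same threshold, where 22.2% of all tested genes rose and 20.6% fell. Among the adaptors that rose were Ldb3 (log2 fold change 6.59), a Z-disc protein, Itgb1bp2 (5.67), the muscle β1 tail binder melusin, and Pxn (3.76), paxillin. Among those that fell were Tln2 (-2.25), a talin, Tns2 (-2.01), a tensin, Rsu1 (-1.71) and Fermt2 (-1.39), kindlin-2.

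Among the basement membrane genes, Col4a1 (-3.25) and Col4a2 (-2.45), the main collagen IV chains, fell with Col15a1 (-4.08) and the sarcoglycan Sgce (-2.94), while Col18a1 (3.02), a collagen of basement membranes, and Sspn (1.57), sarcospan, rose. Col4a1 went from 904, 881 and 823 RPM to 87.2, 111 and 76.0 RPM, beside the fall of Lamc1. Among the ligands, Spp1, osteopontin, rose from at most 0.196 RPM to 9233, 16661 and 13665 RPM (log2 fold change 13.52), and Npnt, nephronectin, from at most 0.765 RPM to 96.8, 300 and 304 RPM (7.43), while the α8 chain of its receptor, Itga8, fell. Tnc (4.52) and Fn1 (2.86), which encode tenascin-C and fibronectin, rose, and Vtn (-5.50), vitronectin, Vcam1 (-2.59), Cd82 (-2.01) and Cd9 (-1.98), the latter pair tetraspanins, fell. Fibronectin and its receptor chain Itga5 therefore both rose in all 3 mice.

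Between the genotypes no member passed the thresholds. In Nedd4L-cKO against WT MuSCs, 0 of 33 members met all of the limits used (limma adjusted p ≤ 0.05, an absolute log2 fold change ≥ 1 and a mean over the 6 libraries ≥ 5 RPM), where 0.653% of 15304 tested genes did, and 0 passed on adjusted p alone, where 0.784% did. At an unadjusted p under 0.05 there were 4 members, 3 higher and 1 lower, beside 14.6% of all tested genes, 7.51% upward and 7.13% downward. In 6 members the groups did not overlap, 5 higher and 1 lower, beside 19.3% of all tested genes, 9.75% upward and 9.59% downward. The log2 fold changes ran from -1.01 to 1.53, and 24 of the 33 were under 0.5 in size, but the 95% interval lay within -1 to 1 for 14 of them. For the others, which include Itga1 and Lama4, it reached beyond that range, so a change of that size was not excluded by these libraries. The lists of adaptors (35 tested), basement membrane partners (29) and ligands (22) also had 0 calls each, with 9, 5 and 6 genes at an unadjusted p under 0.05.

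Itga1, the α1 chain of a collagen and laminin receptor, came nearest to a call. It had 11.8, 32.1 and 30.7 RPM in WT libraries 01, 02 and 03 and 51.0, 69.4 and 87.0 RPM in Nedd4L-cKO libraries 01, 02 and 03. All Nedd4L-cKO libraries lay above all WT libraries, by 1.53 on the log2 scale (SE 0.37, 95% interval 0.71 to 2.35, limma adjusted p = 0.0929). It passed with a floor of 10 normalised counts in every library (adjusted p = 0.0369), and over the alternatives its adjusted p ranged from 0.0369 to 0.223.

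The α4 laminin chain gene Lama4, known from vessel basement membranes, had 4.66, 3.46 and 6.73 RPM in WT and 7.69, 13.5 and 17.6 RPM in Nedd4L-cKO MuSCs (log2 fold change 1.20, SE 0.38, limma adjusted p = 0.188). Most mural cell markers moved in the same direction as Itga1 and Lama4, but Notch3 did not (log2 fold change -0.05). The summed level of 7 such markers was 1226 to 1978 RPM in WT and 2195 to 3330 RPM in Nedd4L-cKO libraries. At an unadjusted p under 0.05 (limma) 4 of 7 were higher, and 0 were called. A large part of these sums was Acta2, with 949, 513 and 700 RPM in WT and 1661, 1066 and 993 RPM in Nedd4L-cKO libraries. Acta2 is not particular to mural cells here, since MuSCs of the culture table, low in Rgs5, had 1382, 1341 and 1078 RPM. Rgs5 had 280, 570 and 1034 RPM in WT and 355, 1270 and 1945 RPM in Nedd4L-cKO libraries, which overlap, and Kcnj8 had 33.5, 49.2 and 119 RPM against 107, 94.5 and 167 RPM. Within Nedd4L-cKO, Itga1, Lama4 and Rgs5 were all lowest in replicate 01 and highest in replicate 03. Of the other mural markers, Abcc9, Myh11 and Cspg4 were so too, and Kcnj8, Notch3 and Acta2 were not. Within WT, Rgs5 was lowest in replicate 01 and highest in replicate 03, but Itga1 was highest and Lama4 lowest in replicate 02. Of 9 endothelial markers 5 were listed, with a summed level of 64.3 to 106 RPM in WT and 53.9 to 95.6 RPM in Nedd4L-cKO libraries. Among them 1 was higher and 1 lower at an unadjusted p under 0.05 (limma). The higher one, Esam, had 6.57, 2.41 and 9.41 RPM in WT and 14.2, 13.7 and 23.0 RPM in Nedd4L-cKO libraries. The lower one, Tek, a large part of the sum in WT, had 40.9, 79.6 and 59.6 RPM and then 19.1, 28.4 and 21.6 RPM. The part of mural or endothelial cells in the Itga1 and Lama4 values was not tested.

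Genes that overlap Itga1 and Lama4 on the genome limit the reading too. Exons of Itga1, on chromosome 13 at 115089632 to 115238677, share 2180 bases with Mocs2 on the other strand, and Mocs2 had 130, 138 and 178 RPM in WT and 263, 230 and 159 RPM in Nedd4L-cKO libraries, an overlapping pair of ranges. Pelo, which lies within Itga1 on the same strand with no shared exon base, had 0.450, 3.61 and 1.48 RPM and then 4.86, 5.02 and 3.80 RPM. Itga1 also shares 685 exon bases with the annotated gene Gm49395 on its own strand. Lama4 shares 1210 exon bases with the noncoding gene Gm67873 and 806 with Fam229b, both on the other strand. Fam229b had 6.81 to 10.2 RPM in WT and 4.97 to 10.3 RPM in Nedd4L-cKO libraries.

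Lama2 was higher in every Nedd4L-cKO library by a smaller margin, at 139, 155 and 149 RPM against 253, 216 and 217 RPM (log2 fold change 0.63, SE 0.23, 95% interval 0.13 to 1.12, limma adjusted p = 0.24). The gap between the groups was wider than the spread within either. Lamb3 was low and lower still in Nedd4L-cKO MuSCs, at 1.08, 1.72 and 1.25 RPM against 0.793, 0.0812 and 0.593 RPM (log2 fold change -0.68, SE 0.28, limma adjusted p = 0.291). The beta chains Itgb5 and Itgb6, partners of αv singled out after their values were seen, also did not overlap, with 8.80 to 13.0 RPM against 13.7 to 18.6 RPM and 1.65 to 2.94 RPM against 3.14 to 5.31 RPM (limma adjusted p = 0.381 and 0.39).

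**Figure D4:**
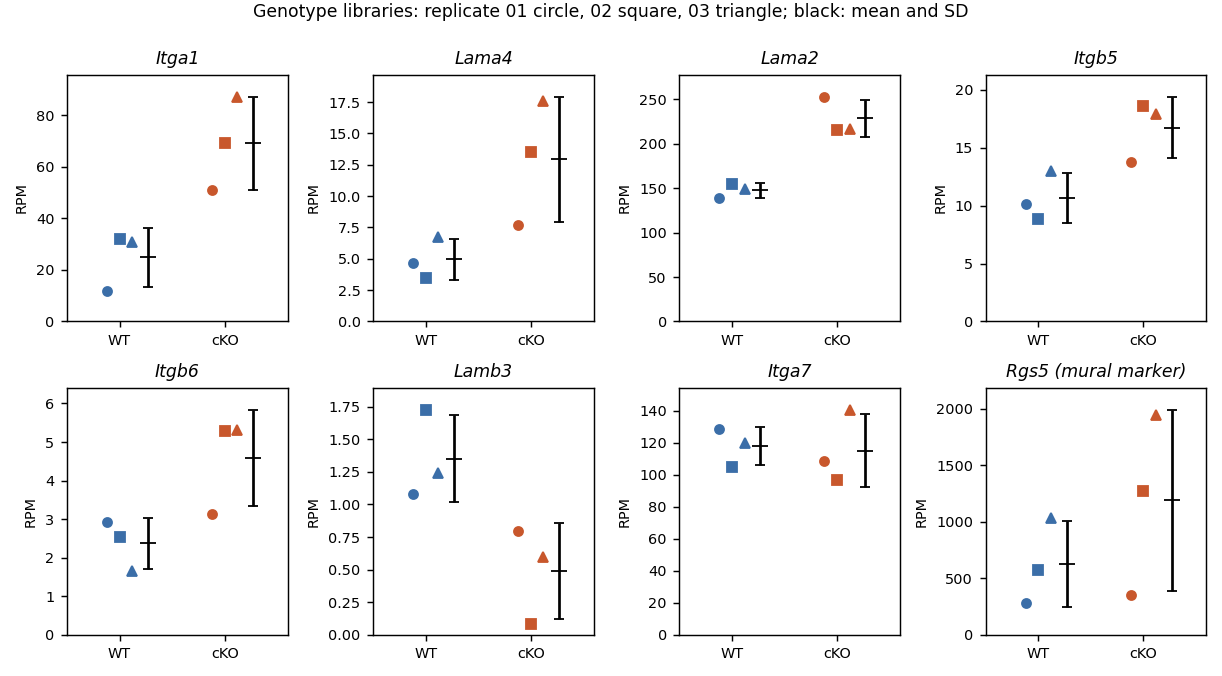
RPM of the 6 members whose groups did not overlap between the genotypes, of Itga7, and of the mural cell marker Rgs5, in WT (blue) and Nedd4L-cKO (orange) MuSCs; symbols mark replicates 01 to 03, black bars the mean and SD of 3 libraries, and every y axis is in RPM from 0. Itga1, Lama4, Lama2, Itgb5 and Itgb6 lie higher and Lamb3 lower in all 3 Nedd4L-cKO libraries, while Itga7 and Rgs5 overlap.

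Of the 4 most abundant chains, Itga7, Itgb1 and Lamc1 overlapped between the genotypes and Lama2, as given above, did not. Itga7 had 129, 105 and 120 RPM in WT and 108, 96.8 and 140 RPM in Nedd4L-cKO MuSCs (log2 fold change -0.05, 95% interval -0.58 to 0.49, limma adjusted p = 0.948). Itgb1 had 625, 689 and 670 RPM against 473, 734 and 521 RPM (log2 fold change -0.22, 95% interval -0.76 to 0.31), and Lamc1 174, 159 and 212 RPM against 149, 166 and 211 RPM (-0.06, 95% interval -0.60 to 0.49). None of these 3 differences exceeded the spread between mice. The gate gene Itgam stayed at 0.149 to 0.702 RPM in all 6 libraries, Itga4 at 1.20 to 4.83 RPM and Itgal at 0.0606 to 2.52 RPM, while Itgav ranged from 32.9 to 103 RPM and Lamb2 from 18.9 to 54.4 RPM, with overlap in each case.

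The shares of the leading chains differed by a few percentage points in 3 classes. Itga7 made up 93.8% ± 2.87 of the laminin-binding alpha chains in WT and 96.6% ± 0.465 in Nedd4L-cKO MuSCs (SD, n = 3), a difference of 2.82 percentage points (exact permutation test, p = 0.4, two-sided). Lama2 made up 84.1%, 84.6% and 81.8% of the laminin alpha chains in WT and 91.8%, 85.8% and 85.5% in Nedd4L-cKO MuSCs, a difference of 4.20 points without overlap (exact permutation test, p = 0.1, two-sided). That difference was 8.11 points with lengths from all annotated exons and 2.14 points without Nedd4L-cKO replicate 01. Itgb1 made up 96.2% ± 0.732 and 93.9% ± 1.16 of the beta chains, a difference of -2.35 points, also without overlap (exact permutation test, p = 0.1, two-sided). The collagen-binding class differed more, with Itga1 at 68.3% ± 23.2 in WT and 88.6% ± 6.05 in Nedd4L-cKO MuSCs (p = 0.2 by the same exact permutation test) and Itga2 at 16.1% ± 13.0 and 2.26% ± 0.784 without overlap (exact p = 0.1). The level of Itga2 itself overlapped, at 5.21, 0.738 and 4.15 RPM in WT and 1.02, 0.655 and 1.73 RPM in Nedd4L-cKO MuSCs (limma adjusted p = 0.423). Its share also depends on Itga1, the largest part of the class by mean. In MuSCs of either genotype, Itga7, Itgb1 and Lama2 thus remained the leading chains of their classes.

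None of the 17 members that changed in culture was called between the genotypes. Of the 12 that rose in myoblasts, 3 had a positive and 9 a negative log2 fold change in Nedd4L-cKO against WT MuSCs, and of the 5 that fell, 1 was positive and 4 negative, from -1.01 (Itga3) to 0.72 (Itgb6), with a lowest adjusted p of 0.24 (limma). Itga3 had 9.64, 4.57 and 0.337 RPM in WT and 0.823, 0.943 and 1.76 RPM in Nedd4L-cKO MuSCs. Lama3 had 10.4, 19.4 and 24.8 RPM and then 5.64, 18.8 and 5.44 RPM (log2 fold change -0.94, limma adjusted p = 0.383). Both pairs of ranges overlapped. The comparisons share no library. Of 31 members tested in both, 11 had the same sign in both, or 35.5%, and of 14343 genes tested in both, 6879 did, or 48.0%. Lama2, for one, fell by 2.01 in culture and had a value of 0.63 between the genotypes.

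The WT MuSCs of the 2 tables, which the authors normalised separately, gave different levels for several members. Itga1 averaged 3.46 ± 0.760 RPM in the culture table and 24.9 ± 11.3 RPM in the genotype table, and Lama4 1.21 ± 2.10 and 4.95 ± 1.65 RPM. Itga7 averaged 206 ± 37.4 and 118 ± 11.9 RPM, and Lamc1 323 ± 55.4 and 182 ± 27.4 RPM (SD, n = 3 each). Itgb1 and Lama2 lay close, at 669 ± 59.2 and 661 ± 32.7 RPM and at 155 ± 29.6 and 147 ± 7.97 RPM. Markers of other cell types differed as well. Rgs5, as given above, was higher in the genotype table. Dcn, a fibroblast and tendon gene, had 193 to 1237 RPM there in WT against 5.75 to 46.1 RPM in MuSCs of the culture table. Of the other fibro-adipogenic markers, Lum, Cd34, Ly6a and Pi16 had higher means in the genotype table, but Col3a1, Dpt and Pdgfra had lower ones. Col3a1 averaged 1073 RPM in WT there and 1644 RPM in MuSCs of the culture table. The mural marker Acta2 was lower too, at 721 against 1267 RPM, while Kcnj8, Abcc9, Myh11, Notch3 and Cspg4 were higher. The tenocyte genes Tnmd and Fmod, with no row in the culture table, had 62.0 to 606 RPM in the WT libraries. The part of such cells in the differences between the tables was not tested.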

How the data were processed

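RNA-seq libraries (SMART-Seq HT, Nextera XT, unstranded) were pseudoaligned by the authors with Kallisto 0.46.1 to GENCODE M28 and imported into DESeq2, and the deposited values are normalised counts, a signal corrected for library and transcript length in each table alone. Whole reads were not recovered from them, so the depth is unknown and no counting interval is given, and library totals of normalised counts were 33189802 to 50687122. Another 18 per-sample columns (RPM and a second copy of the counts) and the authors' columns of fold changes, standard errors, p-values and weights were not used.

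Values were divided by the mean of the 6 library totals of a table to give RPM, and genes with at least 10 normalised counts in 3 libraries were fitted on log2(RPM + 1) with limma 3.58.1 in R 4.3.3 (trend and robust), with Benjamini-Hochberg adjustment over all tested genes. The call in culture was an adjusted p ≤ 0.05, and between genotypes also a log2 fold change of 1 or more in size and a mean over the 6 libraries ≥ 5 RPM. Shares were compared by exact permutation over libraries. The fit was tested on simulated data. Transcript lengths (the longest coding transcript) and positions are from GENCODE vM39 (GRCm39), and promoters from RefSeq (GRCm38.p6). Culture libraries of the same number come from the same mouse, and their deviations from the group means correlated at -0.0314, -0.00502 and 0.0180. Genotype libraries are all from different mice.

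The members and lists were chosen with earlier results of these data known. Values by library are given for members called in culture with a mean of at least 5 RPM in a group, for Itga7, Itgam, Itgb1 and the leading member of each class in MuSCs, and for members with an unadjusted p under 0.05 and separate groups between genotypes. From other lists at most 4 called genes in each direction are named, and some items are not reported here. Itga9, Itgb3, Lama5, Lamb2, Itgb5 and Itgb6 were added after their values were seen. Alternatives were other scalings, pseudocounts, filters and limma settings, the replicate block, other lengths for the shares, and leaving out each library.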

Additional observations from a re-analysis of the deposited data

How the results depend on the processing

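The 17 members called in culture were also called with median-of-ratios scaling, a pseudocount of 0.1 RPM, no filter on low values, limma without trend and robust settings, and the mouse as replicate block. Scaling each library to its own total moved the median of all genes from 0.039 to 0.14 and called 20 members, the 17 with Itga7, Itgb1 and Lama5. With 10 normalised counts in every library 11 members passed, as fewer genes were tested, and with a log2 fold change of 1 or more in size as well 15 did. Leaving out each library gave 12 to 17 called members in culture, with the lowest count without myoblast replicate 05, and 0 between genotypes. In the genotype comparison 1 member, Itga1, was called with 10 normalised counts in every library, and 0 were with every other alternative, the replicate block included. That block lowered the calls over all genes from 100 to 62, but the numbers there do not mark a shared animal (correlations of 0.0192, -0.0232 and -0.181), and in culture, where the block is the mouse, it lowered them from 6566 to 6078.

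The fall in the Itga7 share in culture was -20.5 percentage points, -26.9 with lengths from all annotated exons and -25.1 without lengths, and -21.8 to -18.2 without each library in turn. The Lama2 share difference between genotypes was 4.20 points and 8.11 with exon lengths, and 2.14 to 5.28 without each library. The other share differences ranged, without each library, from -30.9 to -23.0 (Lama2, culture), -9.49 to -7.24 (Itgb1, culture), 1.70 to 4.44 (Itga7, genotype) and -3.01 to -1.93 (Itgb1, genotype). Over the alternatives the log2 fold changes of 5 members in culture and 15 between genotypes took both signs, and 0 of these members were called. They included Lamb2 in culture (-0.40 to 0.25), and between genotypes Itga7 (-0.20 to 0.069), Itgav (-0.49 to 0.25), Itga4 (-0.50 to 0.20), Itgal (-0.76 to 0.15) and Lamc1 (-0.20 to 0.061). With 3 libraries a group and unknown depth, differences among members under about 1 RPM were not resolved.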
